A study of Mus musculus with 12 samples.

Results

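The 10 genes described here are Sqstm1, Slc7a11, Nfe2l2, Keap1, Hmox1, Nqo1, Gclm, Gclc, Txnrd1 and Srxn1, out of 56748 genes in the deposited table. Sqstm1 and Slc7a11 were chosen by their measured levels, which were high in cells with ETV6 forms relative to ZsGreen cells, so their values against ZsGreen are given as a description, without a test. The other 8 were chosen for their place in the NRF2 pathway, with earlier results of these data known, and were tested in every comparison. All 10 were tested between ETV6 forms, where the tests of Sqstm1 and Slc7a11 reuse libraries that led to their choice.

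RNA was sequenced from 12 libraries of Ba/F3, an interleukin-3 (IL-3) dependent mouse line labelled as pro-B cells. All libraries came from cells expressing NRAS G12D, an active RAS protein, that were deprived of IL-3 from the sort on day 0, given fresh medium on day 2 and harvested on day 3. The cells carried wild-type ETV6 (ETV6 WT), the P214L mutant or the double mutant I209S P214L, each ahead of an IRES and ZsGreen in its construct, or ZsGreen alone as the control, with 3 libraries per group. ETV6 is an ETS-family repressor. By the study's design, P214L creates a nuclear export sequence, I209S breaks it, and the question was whether the double mutant resembles ETV6 WT in its transcripts. Nothing in the labels tells if replicate libraries came from separate cultures, so the p-values measure only the spread between these libraries, which may be technical.

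NRF2, encoded by Nfe2l2, is a transcription factor that switches on genes against oxidative and electrophilic stress. It pairs with small MAF proteins on antioxidant response elements in the promoters and enhancers of its targets, and BACH1 competes for the same sites. KEAP1 binds NRF2 and hands it to a ubiquitin ligase for destruction, and p62, the product of Sqstm1, can capture KEAP1 and carry it to autophagosomes, which frees NRF2. Much of this control acts on protein, which was not measured here.

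Promoter windows from 250 bases before to 50 bases after the transcription start (RefSeq, build GRCm38.p6, older than the mm39 build of the counts) were at hand for 8 of the 10 genes. None was at hand for Hmox1 and Gclc. The windows of Sqstm1, Slc7a11 and Srxn1 are shown because Sqstm1 and Slc7a11 were the genes chosen by their levels and the Srxn1 window held the most antioxidant response element matches of the windows at hand. Capitals mark letters that match a motif: both forms of the antioxidant response element, TGACNNNGC and TGAGNNNGC, the CEBP-ATF response element TGATGCAA, the CLEAR element CACGTGAC or the ETS site CCGGAAG, each searched on both strands. A match on the other strand appears as its reverse complement.
Sqstm1, chr11:50210771-50211070, minus strand: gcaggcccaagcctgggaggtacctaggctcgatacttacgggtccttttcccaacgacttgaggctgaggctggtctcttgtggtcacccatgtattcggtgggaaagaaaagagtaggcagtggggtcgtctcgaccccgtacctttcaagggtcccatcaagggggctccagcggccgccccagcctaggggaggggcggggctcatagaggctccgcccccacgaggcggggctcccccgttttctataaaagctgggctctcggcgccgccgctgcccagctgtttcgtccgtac
Slc7a11, chr3:50443564-50443863, minus strand: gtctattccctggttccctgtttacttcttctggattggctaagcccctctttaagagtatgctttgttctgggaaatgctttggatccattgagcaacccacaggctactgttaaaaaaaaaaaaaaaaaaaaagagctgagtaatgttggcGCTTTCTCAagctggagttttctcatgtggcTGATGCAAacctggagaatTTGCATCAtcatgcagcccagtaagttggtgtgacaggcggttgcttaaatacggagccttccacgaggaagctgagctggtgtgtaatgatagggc
Srxn1, chr2:152105274-152105573, plus strand: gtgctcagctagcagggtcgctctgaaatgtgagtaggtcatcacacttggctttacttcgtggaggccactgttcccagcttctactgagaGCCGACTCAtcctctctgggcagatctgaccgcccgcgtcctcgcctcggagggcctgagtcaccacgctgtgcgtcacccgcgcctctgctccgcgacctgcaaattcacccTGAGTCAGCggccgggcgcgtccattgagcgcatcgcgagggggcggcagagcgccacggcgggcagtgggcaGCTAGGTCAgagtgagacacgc

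The Srxn1 window held 3 antioxidant response element matches, at 158 and 45 bases before the start and 29 bases after it. The Slc7a11 window held 1 such match, 97 bases before the start, and a CEBP-ATF match on each strand, 66 and 47 bases before the start. The Sqstm1, Keap1 and Nqo1 windows held no match to any of the 5 motifs, and sequence outside the windows was not searched. Nfe2l2, Gclm and 1 of the 3 windows of Txnrd1 held 1 antioxidant response element match each, and the only ETS match among these genes was in the Nfe2l2 window, 168 bases before the start. Of 32851 promoter windows of this length, 27.8% held an antioxidant response element match of either form, 8.86% an ETS match and 0.895% a CEBP-ATF match, while 2 windows in all held 2 or more CEBP-ATF matches. The motifs were picked after the sequences had been seen, and a match is a description of letters only.

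Total counts per library were between 14301683 and 18607595, and 18S ribosomal RNA took 1.35% to 5.90% of them. Levels below are CPM scaled by edgeR's TMM method, and a gene was called at a Benjamini-Hochberg adjusted p under 0.05 over the 14794 genes tested with edgeR's quasi-likelihood test. ZsGreen 1 stood apart on the second principal component (70.7, against 22.4 for the next library, ETV6 WT 1, and 21.2 for I209S P214L 1). Etv6 stood at 109 ± 11.4 CPM in ETV6 WT cells, 103 ± 4.64 CPM in P214L cells and 99.1 ± 12 CPM in I209S P214L cells, against 81.7 ± 5.03 CPM in ZsGreen cells (SD, n = 3 each). The species of the ETV6 construct is not given, so whether its reads are counted with those of the endogenous gene is not known. Of 11 pro-B and B lineage markers, 3 reached 1 CPM in each group (Ptprc, Cd79b and Cd79a), while Igll1, Rag1 and Il7r had a count of 0 in all 12 libraries. In bulk RNA, fewer cells of a type and less RNA per cell cannot be told apart.

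Sqstm1 encodes p62, a selective autophagy receptor and signalling scaffold (ENSMUSG00000015837; chromosome 11, 50090193 to 50101654, minus strand, mm39). Its level was 1015, 943 and 893 CPM in the 3 ETV6 WT libraries, 321, 293 and 280.4 CPM in P214L cells, and 1242, 1070.4 and 1124 CPM in I209S P214L cells, against 242, 236 and 205 CPM in ZsGreen cells. The groups did not overlap, and the order of their means was I209S P214L, ETV6 WT, P214L, then ZsGreen. The fold over ZsGreen was 4.17 for ETV6 WT cells, 1.31 for P214L cells and 5.03 for I209S P214L cells, values that chose this gene and carry no test.

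Between the forms, where Sqstm1 was tested, it was lower with P214L than with ETV6 WT (log2 fold change -1.67 ± 0.08 SE, adjusted p = 4.31e-11 by edgeR's quasi-likelihood test) and higher with I209S P214L than with P214L (1.94 ± 0.08, adjusted p = 6.4e-12). These tests reuse libraries whose high Sqstm1 levels chose the gene, so their p-values are not independent of that choice. I209S P214L against ETV6 WT gave 0.27, with a 95% interval of 0.10 to 0.43 for this gene alone and an adjusted p of 0.767, so it was not called although the 3 I209S P214L libraries all lay above the 3 ETV6 WT libraries. Reads of Sqstm1 could be shared with Mrnip on the opposite strand, since strandedness is not known, but Mrnip held 733 counts over all libraries and Sqstm1 131874.

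**Figure D1:**
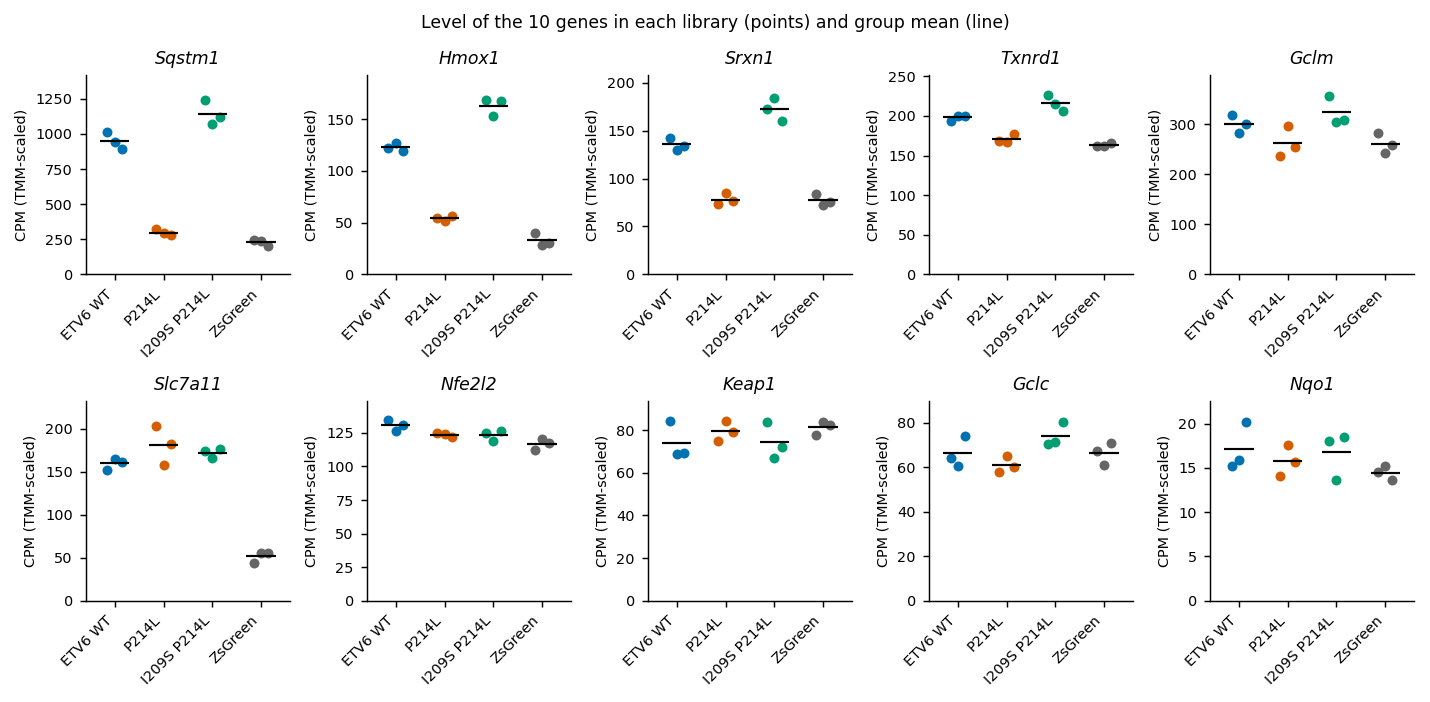
Level of each of the 10 genes in CPM (TMM-scaled, linear axis from 0) in the 3 libraries of each group (points) with the group mean (line). Sqstm1, Hmox1 and Srxn1 are high with ETV6 WT and I209S P214L and low with P214L and ZsGreen, whereas Slc7a11 lies between 152 and 203 CPM in every library with an ETV6 form and at 55.1 CPM or less in every ZsGreen library.

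Slc7a11 encodes xCT, the cystine-importing chain of system xc-, which supplies cysteine for glutathione (ENSMUSG00000027737; chromosome 3, 49846975 to 50398063, minus strand). Its level was 152, 165 and 161 CPM in ETV6 WT cells, 203, 158 and 183 CPM in P214L cells, and 174, 166 and 177 CPM in I209S P214L cells, against 44.2, 55.1 and 54.9 CPM in ZsGreen cells. All 9 libraries with an ETV6 form lay above all 3 ZsGreen libraries, and the P214L libraries spread over the range of the other forms. The described fold over ZsGreen was 3.11 for ETV6 WT cells, 3.53 for P214L cells and 3.35 for I209S P214L cells.

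Slc7a11 was not called between any pair of forms. The log2 difference was 0.18 for P214L against ETV6 WT (95% interval -0.0091 to 0.38, adjusted p = 0.152), -0.075 for I209S P214L against P214L (-0.27 to 0.12, adjusted p = 0.597) and 0.11 for I209S P214L against ETV6 WT (-0.084 to 0.30, adjusted p = 0.9998), all from edgeR. Without P214L 2, the lowest library of its group with 158 CPM, the rise of P214L over ETV6 WT was called (0.28, adjusted p = 0.0398). Of the 12 fits with a single library left out, this was the only 1 with a call. Those fits gave 0.10 to 0.28, with adjusted p up to 0.528. This is the gene whose window, printed above, held a CEBP-ATF match on each strand.

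Nfe2l2, the NRF2 gene itself (ENSMUSG00000015839; chromosome 2, 75505857 to 75534985, minus strand), varied little. It stood at 134, 127 and 131 CPM in ETV6 WT cells, 125, 124 and 122 CPM in P214L cells, and 125, 119 and 126 CPM in I209S P214L cells, against 112, 120.5 and 117 CPM in ZsGreen cells. The ETV6 WT libraries all lay above the ZsGreen libraries, and the rise was at the threshold (0.16 ± 0.06 SE, adjusted p = 0.0497 by edgeR). It was no longer called when any 1 of the 12 libraries was left out (adjusted p 0.0587 to 0.201). P214L (0.082, adjusted p = 0.543) was not called against ZsGreen, I209S P214L was not called either (0.078, adjusted p = 0.346), and no pair of forms gave a call.

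Keap1, the NRF2 adaptor to the CUL3 ligase (ENSMUSG00000003308; chromosome 9, 21141026 to 21150657, minus strand), stood at 84.2, 68.6 and 69.4 CPM in ETV6 WT cells, 74.9, 84.3 and 78.9 CPM in P214L cells, and 83.8, 67.0 and 71.8 CPM in I209S P214L cells, against 77.7, 83.8 and 82.6 CPM in ZsGreen cells. The groups overlapped, and Keap1 was called in none of the 6 comparisons (log2 -0.14 for ETV6 WT, -0.035 for P214L and -0.13 for I209S P214L against ZsGreen). The library ETV6 WT 1 and the library I209S P214L 1 held the high values of their groups. With both of these high values left out, Keap1 was called lower than in ZsGreen cells for ETV6 WT (-0.24, adjusted p = 0.0269 by edgeR) and also for the double mutant (-0.23, adjusted p = 0.0313). With any 1 of the 12 libraries left out it was called in neither comparison (lowest adjusted p 0.0586 and 0.069).

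Among Hmox1, Srxn1, Txnrd1, Gclm, Gclc and Nqo1, Hmox1 differed most. Hmox1 encodes heme oxygenase 1, which degrades heme to biliverdin, iron and carbon monoxide (ENSMUSG00000005413; chromosome 8, 75820249 to 75827217, plus strand). It stood at 122, 127 and 119 CPM in ETV6 WT cells, 54.7, 52.0 and 56.2 CPM in P214L cells, and 169, 153 and 167 CPM in I209S P214L cells, against 40.1, 28.8 and 30.4 CPM in ZsGreen cells. The 4 groups did not overlap, and ZsGreen 1 was the highest of its group. Hmox1 rose over ZsGreen with ETV6 WT by a log2 difference of 1.89 ± 0.10 SE (adjusted p = 1.13e-10 by edgeR), with P214L by 0.71 ± 0.10 (adjusted p = 0.000274) and with I209S P214L by 2.30 ± 0.10 (adjusted p = 7.43e-12). Without ZsGreen 1 these log2 differences were 2.04, 0.87 and 2.45. It was lower with P214L than with ETV6 WT (-1.18, adjusted p = 4.68e-08) and higher with I209S P214L than with P214L (1.59, adjusted p = 8.25e-10).

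Srxn1 encodes sulfiredoxin, which repairs over-oxidised peroxiredoxins (ENSMUSG00000032802; chromosome 2, 151947436 to 151953296, plus strand). It stood at 143, 130.2 and 134 CPM in ETV6 WT cells, 73.5, 84.6 and 76.4 CPM in P214L cells, and 173, 184 and 159.7 CPM in I209S P214L cells, against 84.1, 72.7 and 75.7 CPM in ZsGreen cells. P214L and ZsGreen libraries lay in the same range, below all libraries with ETV6 WT or I209S P214L. Srxn1 rose over ZsGreen with ETV6 WT (0.81 ± 0.08 SE, adjusted p = 3.02e-07 by edgeR) and with I209S P214L (1.15 ± 0.08, adjusted p = 3.17e-09), and was not called with P214L (0.012, 95% interval -0.16 to 0.18, adjusted p = 0.963). P214L was lower than ETV6 WT (-0.80, adjusted p = 5.72e-07), and I209S P214L was higher than P214L (1.14, adjusted p = 5.05e-09).

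Txnrd1 encodes cytosolic thioredoxin reductase, which recharges thioredoxin from NADPH (ENSMUSG00000020250; chromosome 10, 82669785 to 82733546, plus strand). Its differences were small beside those of Hmox1 and Srxn1: 194, 199.6 and 200.5 CPM in ETV6 WT cells, 169, 167 and 177 CPM in P214L cells, and 226, 215 and 206 CPM in I209S P214L cells, against 162, 162 and 165 CPM in ZsGreen cells. The spread within groups was small and the 4 groups did not overlap. Txnrd1 rose with ETV6 WT (0.28 ± 0.06 SE, adjusted p = 0.00115 by edgeR) and with I209S P214L (0.40 ± 0.06, adjusted p = 2.96e-05), and P214L was not called (0.068, adjusted p = 0.616). It was higher with I209S P214L than with P214L (0.34, adjusted p = 0.000264). The lower level with P214L than with ETV6 WT (-0.21, adjusted p = 0.0121) was lost without P214L 1 (adjusted p = 0.0622) or P214L 2 (0.0654).

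The enzyme that starts glutathione synthesis has a modifier chain, Gclm (ENSMUSG00000028124; chromosome 3, 122039206 to 122064381, plus strand), and a catalytic chain, Gclc (ENSMUSG00000032350; chromosome 9, 77661817 to 77701767, plus strand). Gclm stood at 319, 284 and 300.4 CPM in ETV6 WT cells, 238, 296 and 255 CPM in P214L cells, and 358, 306 and 309 CPM in I209S P214L cells, against 283, 243 and 258 CPM in ZsGreen cells. The I209S P214L libraries lay above all ZsGreen libraries, and the P214L libraries overlapped ETV6 WT and ZsGreen and lay below I209S P214L. Gclm rose over ZsGreen with I209S P214L (0.31 ± 0.09 SE, adjusted p = 0.00808 by edgeR), a call lost without ZsGreen 2 (adjusted p = 0.0535), and was not called with ETV6 WT (0.20, adjusted p = 0.077) or with P214L (0.0086, adjusted p = 0.978).

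Gclc stood at 64.3, 60.5 and 74.1 CPM in ETV6 WT cells, 57.9, 64.9 and 60.2 CPM in P214L cells, and 70.6, 71.5 and 80.5 CPM in I209S P214L cells, against 67.3, 61.0 and 71.0 CPM in ZsGreen cells. It was not called against ZsGreen with any form. Between forms both chains were higher with I209S P214L than with P214L (Gclm 0.30, adjusted p = 0.0123; Gclc 0.28, adjusted p = 0.0243). The Gclm call was lost without P214L 1 (adjusted p = 0.0877), P214L 3 (0.0561) or I209S P214L 1 (0.0653), and the Gclc call without P214L 1 (0.113), P214L 3 (0.077) or I209S P214L 3 (0.131). Without P214L 2, the lower Gclm level with P214L than with ETV6 WT (-0.19, adjusted p = 0.109) was called (-0.28, adjusted p = 0.0273).

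Nqo1, a quinone reductase often used as a readout of NRF2 (ENSMUSG00000003849; chromosome 8, 108114857 to 108129838, minus strand), was the least abundant of the 10 by CPM. It stood at 15.2, 15.9 and 20.2 CPM in ETV6 WT cells, 14.1, 17.6 and 15.7 CPM in P214L cells, and 18.1, 13.7 and 18.5 CPM in I209S P214L cells, against 14.6, 15.2 and 13.7 CPM in ZsGreen cells. Nqo1 was called in none of the 6 comparisons, and its 95% interval for ETV6 WT against ZsGreen ran from -0.081 to 0.57 on the log2 scale.

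Counted over the 8 genes tested against ZsGreen, ETV6 WT had 4 called, all higher (Hmox1, Srxn1, Txnrd1 and Nfe2l2), where 37.7% of all genes tested were called and 19.5% were called higher. With any 1 of the 12 libraries left out, the ETV6 WT count was 3 of 8, without Nfe2l2, where 4843 to 5736 of all genes were called. P214L had 1 of 8 called (Hmox1), against 5.08% of all genes called and 3.47% called higher. I209S P214L had 4 of 8 called, all higher (Hmox1, Srxn1, Txnrd1 and Gclm), against 41.5% of all genes and 20.8% higher. With 8 genes these shares are set beside the background only, and no test of the genes as a set was made. The median log2 difference of the 8 was 0.22 for ETV6 WT cells, 0.040 for P214L cells and 0.26 for I209S P214L cells, where the medians of all genes were 0.032, 0.0077 and 0.030. These 3 comparisons share the ZsGreen libraries.

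**Figure D2:**
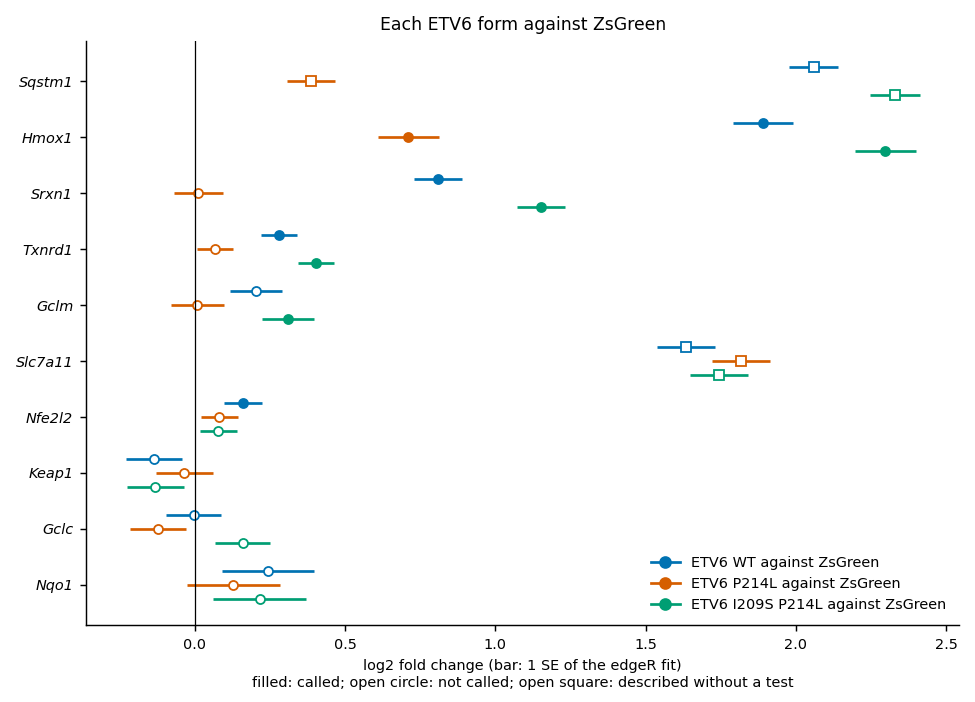
Log2 fold change of each gene (rows) for ETV6 WT, P214L and I209S P214L against ZsGreen, with bars of 1 SE of the edgeR fit; filled circles were called, open circles were not called and open squares were described without a test. Hmox1 is right of 0 for every form (1.89, 0.71 and 2.30), Srxn1 lies at 0.012 for P214L, and the Slc7a11 values of the 3 forms lie together between 1.64 and 1.82.

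Between forms all 10 genes were tested. Sqstm1 and Slc7a11 were chosen by levels in these same libraries, so their part in the counts and medians is not independent of that choice. P214L against ETV6 WT had 4 of 10 called, all lower (Sqstm1, Hmox1, Srxn1 and Txnrd1), where 29.2% of all genes were called and 14.6% were lower. I209S P214L against P214L had 6 of 10 called, all higher (the same 4 with Gclm and Gclc), against 33% of all genes and 15.9% higher. These 2 comparisons share the P214L libraries. The median of the 10 was -0.16 and 0.29 in these comparisons, where all genes had medians of -0.0017 and 0.0042.

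I209S P214L against ETV6 WT had 0 of 10 called with edgeR, where 0.0338% of all genes (5 of 14794) were called. At an unadjusted p under 0.05 edgeR gave 3 (Sqstm1, Hmox1 and Srxn1). The share of all genes under that p was not counted, so these 3 have no background. Limma-voom called 0 of the 10 and 3 of all genes. DESeq2 called 2 of the 10 and 23 of all genes, the 2 being Hmox1 (0.42, adjusted p = 0.0145) and Srxn1 (0.35, adjusted p = 0.0145). Hmox1 (0.41, 95% interval 0.21 to 0.60) and Srxn1 (0.34, 0.18 to 0.51) had an adjusted p of 0.421 each with edgeR, and without ZsGreen 1 Hmox1 was called (0.41, adjusted p = 0.0434). For 5 of the 10 genes all I209S P214L libraries lay above all ETV6 WT libraries (Sqstm1, Slc7a11, Hmox1, Txnrd1 and Srxn1), and for 1, Nfe2l2, they lay below. Of all genes, 3.95% lay above and 4.38% below in this way.

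**Figure D3:**
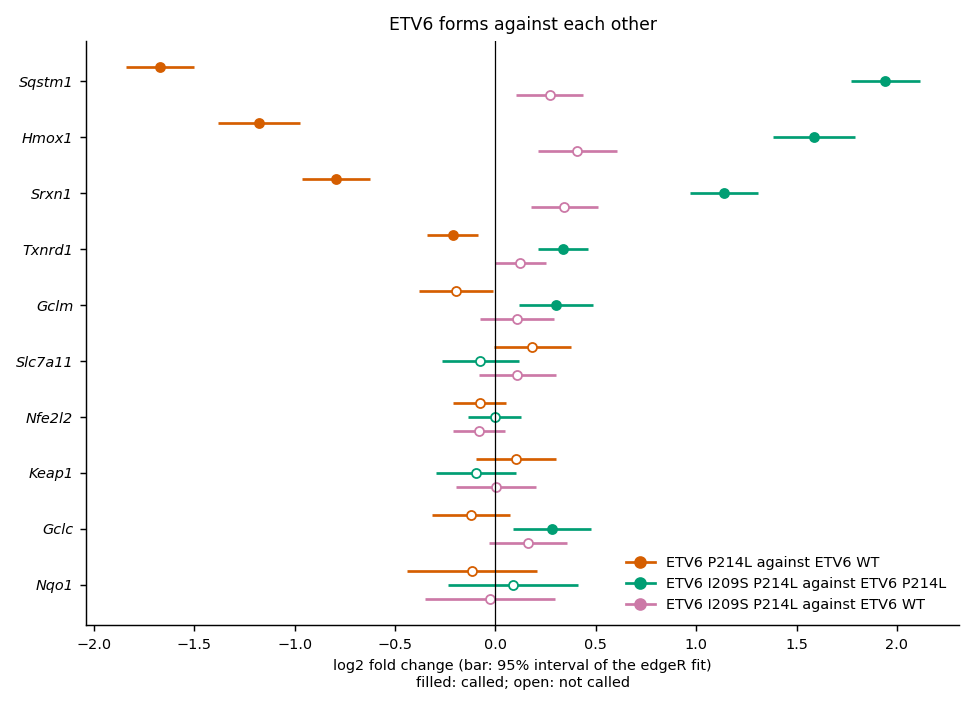
Log2 fold change of each gene (rows) for P214L against ETV6 WT, I209S P214L against P214L and I209S P214L against ETV6 WT, with 95% intervals of the edgeR fit; filled points were called and open points were not. Sqstm1, Hmox1 and Srxn1 lie left of 0 for P214L against ETV6 WT (-1.67, -1.18 and -0.80) and right of 0 for I209S P214L against P214L, while no point is filled for I209S P214L against ETV6 WT.

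Levels of different genes can be set side by side only per length, for which the authors' deposited FPKM was used. With ETV6 WT the order of group means was Sqstm1 (279.8 FPKM), Hmox1 (69.4), Srxn1 (47.6), Gclm (47.3), Nfe2l2 (34.0), Txnrd1 (27.6), Gclc (17.4), Keap1 (15.6), Slc7a11 (11.3) and Nqo1 (10.9). Srxn1 and Gclm, Gclc and Keap1, and Slc7a11 and Nqo1 were neighbours whose libraries overlapped. In ZsGreen cells Sqstm1 was also first (67.5 FPKM), followed by Gclm (41.3), Nfe2l2 (30.6) and Srxn1 (27.3), Hmox1 was at 18.8 FPKM, and Slc7a11 was last (3.67). Hmox1 ranked next to Sqstm1 with ETV6 WT and with I209S P214L (92.7 FPKM), while with P214L, at 30.6 FPKM, it ranked below Gclm (41.3 FPKM) and Nfe2l2 (32.2 FPKM).

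**Figure D4:**
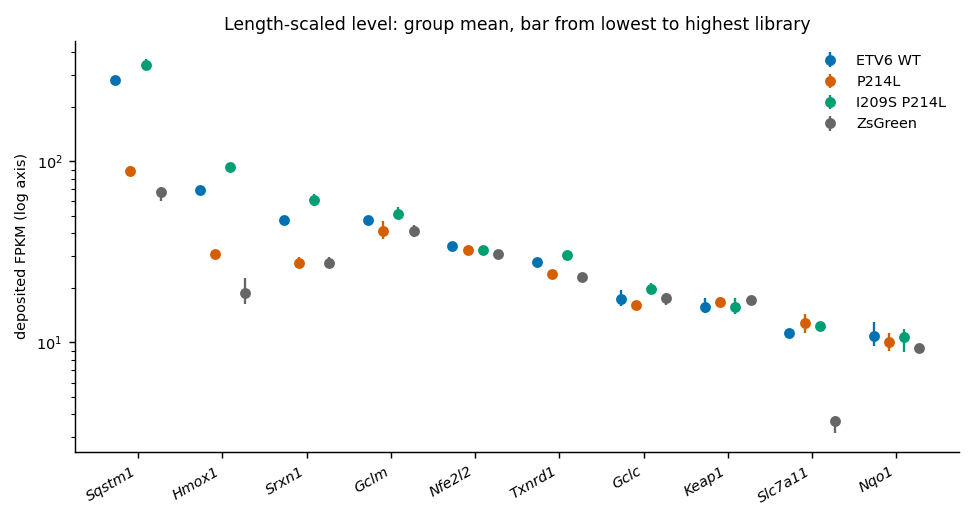
Deposited FPKM of each gene (log axis) as the mean of 3 libraries per group, with a bar from the lowest to the highest library. Sqstm1 is the most abundant gene per length in every group, and Slc7a11 in ZsGreen cells, at 3.67 FPKM, is the lowest point.

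Across the 12 libraries, which fall into 4 groups and so share their group levels, the log2 CPM of Sqstm1 ran closest to Hmox1 among the 10 genes (Pearson r = 0.98), then Srxn1 (0.97) and Txnrd1 (0.95), with Gclm at 0.78, Slc7a11 at 0.62, Nfe2l2 at 0.61, Gclc and Nqo1 at 0.46 each and Keap1 at -0.47. Many other genes ran closer to Sqstm1: Hmox1 ranked 109, Srxn1 265 and Txnrd1 412 among 9275 genes. Of 9275 genes ranked, the 5 most like Sqstm1 were Cat, the peroxide-degrading catalase, Plin2, a lipid droplet coat protein, Ahnak2, Itm2b and Elk3 (r from 0.994 to 0.997). Plin2 averaged 218 CPM in ETV6 WT cells, 73.4 CPM in P214L cells and 237 CPM in I209S P214L cells, against 54.7 CPM in ZsGreen cells. The 5 most like Slc7a11 were Lima1, Ppp3ca, Cd44, Myb and Gpr141 (r from 0.953 to 0.97), and Gpr141 averaged 63.2, 52.0 and 72.3 CPM with the same forms, against 21.3 CPM in ZsGreen cells. By rank correlation 1 of the 5 was shared for Sqstm1 (Cat) and 0 of the 5 for Slc7a11.

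The wider pathway was described with 8 lists holding 155 genes, of which 131 were tested and 19 stood in more than 1 list. Among 29 tested NRF2 targets beyond the 10 genes, 15 rose and 2 fell with ETV6 WT (median log2 difference 0.38), 7 rose and 0 fell with P214L (median 0.17), and 16 rose and 3 fell with I209S P214L (median 0.67), each against ZsGreen. These calls were 58.6%, 24.1% and 65.5% of the list, where 37.7%, 5.08% and 41.5% of all genes were called and the medians of all genes were 0.032, 0.0077 and 0.030. The 29 include Gsta2, which passed the filter on low counts only through libraries where it was high, so its part is not support. The shares and medians of the lists that follow stand beside the same background, and no list was tested against other genes. Ftl1, the ferritin light chain, averaged 2408 ± 149 CPM in ETV6 WT cells, 1496 ± 52.6 CPM in P214L cells and 2759 ± 109 CPM in I209S P214L cells, against 1085 ± 43.2 CPM in ZsGreen cells, and rose in all 3 (adjusted p at most 9.28e-05 with edgeR). Taldo1, a pentose phosphate enzyme, and Slc48a1, a heme transporter, rose with ETV6 WT (0.96 and 0.98) and with I209S P214L (0.92 and 1.11), and P214L gave 0.17 and 0.053, not called. Trim16 and Prdx1 went the other way: Trim16 fell with ETV6 WT (-1.97) and I209S P214L (-2.43), and the peroxiredoxin Prdx1 fell by 0.72 and 0.61.

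The P214L count of this list was 3 without P214L 1, 4 without P214L 3 and 4 without ZsGreen 2. The glutathione transferase Gsta2, named after its values were seen, averaged 2.90 CPM in ETV6 WT cells and 5.37 CPM in I209S P214L cells, had 1 count in all with P214L, and had no count in ZsGreen cells, which allows up to 0.0608 CPM. Its mean was 47.7-fold the ZsGreen floor with ETV6 WT and 88.3-fold with I209S P214L, at a floor of 3 counts over the group. Only the ZsGreen side was bounded, so these ratios are not lower limits of the fold. Gsta2 passed the filter on low counts only through ETV6 WT or I209S P214L libraries, where it was high, so its rise there is not independent evidence. It stays in the counts and medians of the NRF2 target list in every comparison, where its part is not support for a rise of the list. No count without Gsta2 was made. Reads of Gsta2 can be shared with near-identical family members, so its value is uncertain. Genes of the list that were below the filter on low counts were Gpx2, Gsta1, Gstm3, Gstm5, Gstp2, Mgst1, Ephx1, Cbr1 and Cbr3.

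Of 20 tested NRF2 regulators and partners, 10 rose and 3 fell with ETV6 WT, 1 rose with P214L, and 9 rose and 3 fell with I209S P214L (65%, 5% and 60% called, medians 0.26, 0.073 and 0.29). Bach1, the repressor that competes with NRF2 for its sites, averaged 147 ± 16.8 CPM in ETV6 WT cells, 95.4 ± 0.311 CPM in P214L cells and 157 ± 6.16 CPM in I209S P214L cells, against 83.7 ± 2.13 CPM in ZsGreen cells, and was called with ETV6 WT and I209S P214L (0.81 and 0.91). The small MAF genes Mafg (0.81 and 0.78) and Mafk (0.51 and 0.52) and the coactivator Ep300 (0.66 in both) rose in the same 2 comparisons. The single P214L call was Mafg (0.29, adjusted p = 0.0482), and the count was 0 without any 1 of 7 libraries: ETV6 WT 2, P214L 1, P214L 2, P214L 3, I209S P214L 2, I209S P214L 3 or ZsGreen 3. Nfe2, the relative of NRF2, fell with ETV6 WT (-0.27) and I209S P214L (-0.48).

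In heme and iron handling, 6 of 12 rose and 2 fell with ETV6 WT, 3 rose with P214L, and 6 rose and 1 fell with I209S P214L (66.7%, 25% and 58.3% called, medians 0.19, 0.089 and 0.31). The heme exporter Flvcr1 rose (1.02 with ETV6 WT and 1.42 with I209S P214L), and the transferrin receptor Tfrc fell to 183 ± 3.90 CPM in ETV6 WT cells and 178 ± 1.03 CPM in I209S P214L cells, against 330.0 ± 8.62 CPM in ZsGreen cells. With P214L, Ftl1 (0.46) and the ferritin heavy chain Fth1 (0.36, adjusted p = 0.000566) rose, whereas Fth1 was not called with ETV6 WT (0.0082) or I209S P214L (0.076). Beside the heme genes, the summed level of 8 erythroid markers was 259 to 354 CPM in ETV6 WT cells, 65.3 to 104 CPM in P214L cells and 268 to 395 CPM in I209S P214L cells, against 90.9 to 96.4 CPM in ZsGreen cells. Of these markers 4, 3, 5 and 3 reached 1 CPM in those groups, Hba-a1 gave most of the sum in ETV6 WT and I209S P214L cells, Hba-a2 had 0 counts with P214L and in ZsGreen cells, and Alas2 was under 1 CPM in every group. Klf1 went the other way, untested, at 24.1 CPM in ETV6 WT cells, 40.9 CPM in P214L cells and 19.1 CPM in I209S P214L cells, against 41.0 CPM in ZsGreen cells. Epor went with Hba-a1, at 24.4, 16.1 and 20.6 CPM with the same forms, against 16.7 CPM in ZsGreen cells. The part of the erythroid markers in the results for Hmox1 and Sqstm1 was not tested.

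In the glutathione list, 5 of 17 tested genes rose and 3 fell with ETV6 WT, 3 rose with P214L, and 5 rose and 4 fell with I209S P214L. The shares called, 47.1%, 17.6% and 52.9%, stood against 37.7%, 5.08% and 41.5% of all genes, and the medians were 0.31, -0.015 and 0.25. Gpx4, the lipid peroxide reductase, averaged 545 ± 36.7 CPM in ETV6 WT cells, 152 ± 12.3 CPM in P214L cells and 565 ± 16.3 CPM in I209S P214L cells, against 163 ± 17.2 CPM in ZsGreen cells, and P214L was not called (-0.10, adjusted p = 0.569). Glutathione synthetase, Gss, rose by 0.88 with both other forms. The P214L rises were Glrx, Gpx1 and Gsr (0.41, 0.82 and 0.31), of which Glrx fell with ETV6 WT (-0.32) and I209S P214L (-0.36). The P214L count was 1 without P214L 1 or without ZsGreen 1.

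Of 19 genes for thioredoxin, peroxiredoxin, superoxide dismutase and catalase, 4 rose and 5 fell with ETV6 WT, 4 rose with P214L, and 5 rose and 5 fell with I209S P214L. The shares called, 47.4%, 21.1% and 52.6%, stood against 37.7%, 5.08% and 41.5% of all genes, and the medians were -0.12, -0.021 and -0.10. Cat averaged 228 ± 8.64 CPM in ETV6 WT cells, 135 ± 2.91 CPM in P214L cells and 253 ± 7.52 CPM in I209S P214L cells, against 113 ± 5.25 CPM in ZsGreen cells, and Txnip, an inhibitor of thioredoxin, rose too (1.12, 0.37 and 1.36). Sod2, the mitochondrial superoxide dismutase, and Sesn1 fell with ETV6 WT (-0.61 and -0.67) and I209S P214L (-0.58 and -0.73). The P214L count was 2 without any 1 of its own libraries or without ZsGreen 3. In the pentose phosphate and NADPH list of 15, 4 rose and 5 fell with ETV6 WT, 2 rose with P214L (G6pdx and Pgd, with 1 called without any 1 P214L library, ZsGreen 2 or ZsGreen 3), and 4 rose and 6 fell with I209S P214L (60%, 13.3% and 66.7% called, medians -0.12, -0.010 and 0.024).

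Among 15 selective autophagy receptors and ATG8 genes, 8 rose and 2 fell with ETV6 WT, 2 rose with P214L, and 9 rose and 3 fell with I209S P214L (66.7%, 13.3% and 80% called, medians 0.41, 0.11 and 0.39). Ncoa4, the ferritin receptor, rose with all 3 forms (1.31, 0.38 and 1.38), and so did the ATG8 gene Gabarap (0.72, 0.28 and 0.69). Nbr1, a receptor related to p62, averaged 176 ± 3.16 CPM in ETV6 WT cells, 117 ± 2.63 CPM in P214L cells and 180.0 ± 3.85 CPM in I209S P214L cells, against 103 ± 8.0 CPM in ZsGreen cells, and was called with ETV6 WT and I209S P214L (0.78 and 0.81). Calcoco1 rose by 0.85 and 0.97 in the same comparisons, while Wdfy3 (-0.66 and -0.69) and Optn (-0.45 and -0.34) fell. The P214L count was 1 without P214L 1, P214L 2, ZsGreen 1 or ZsGreen 3.

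The ATF4 and cystine list holds the partner chain of xCT and genes of the amino acid response. Of its 22 tested genes, 3 rose and 11 fell with ETV6 WT (median -0.23), 0 rose and 2 fell with P214L (median -0.15), and 5 rose and 11 fell with I209S P214L (median -0.21), which were 63.6%, 9.09% and 72.7% of the list. Slc3a2, the heavy chain that pairs with xCT, averaged 227 ± 32.4 CPM in ETV6 WT cells, 221 ± 3.20 CPM in P214L cells and 236 ± 13.7 CPM in I209S P214L cells, against 188 ± 10.9 CPM in ZsGreen cells, and was called with ETV6 WT (0.27, adjusted p = 0.0163) and I209S P214L (0.33, adjusted p = 0.00455). The one-carbon gene Mthfd2 fell with ETV6 WT (-1.39) and I209S P214L (-1.52), as did Asns (-1.28 and -1.32), and with P214L they were at -0.27 and -0.18, not called. The serine enzyme Psat1 fell with all 3 (-1.36, -0.41 and -1.43). Psat1 and Ppp1r15a were the P214L calls, and that count was 1 without P214L 1, 7 without ETV6 WT 1, 4 without I209S P214L 1, and 8 with only the 6 libraries compared.

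**Figure D5:**
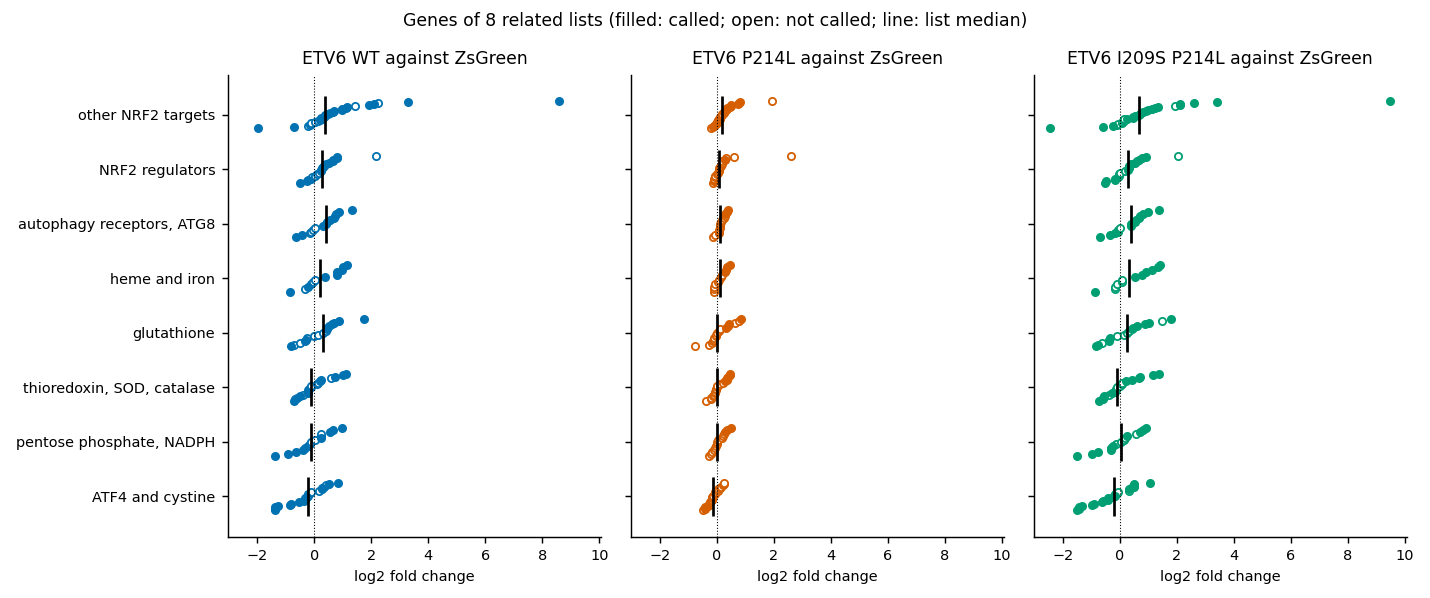
Log2 fold change of each tested gene in the 8 lists (rows) for ETV6 WT, P214L and I209S P214L against ZsGreen (panels), with filled points for called genes, open points for genes not called and a line at the list median. The NRF2 target row has medians of 0.38, 0.17 and 0.67 and the ATF4 and cystine row medians of -0.23, -0.15 and -0.21; the point right of 8 is Gsta2, which had no ZsGreen count, so its place is not a bound on its fold.

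Between forms, the 29 NRF2 targets had 4 called higher and 10 lower for P214L against ETV6 WT, 48.3% of the list where 29.2% of all genes were called and 14.6% were lower. For I209S P214L against P214L they had 14 called higher and 5 lower, 65.5% of the list where 33% of all genes were called and 15.9% were higher. Both counts keep Gsta2 among the 29, although it passed the filter only through ETV6 WT or I209S P214L libraries. For I209S P214L against ETV6 WT, edgeR called 0 of the 131 list genes, with 11 at an unadjusted p under 0.05. The share of all genes under that p was not counted, so these 11 have no background. DESeq2 called 1 list gene and 23 of all genes, and limma-voom called 0 list genes and 3 of all genes. Markers of macrophages and monocytes summed to 134 to 149 CPM in ETV6 WT cells, 117 to 167 CPM in P214L cells and 101 to 141 CPM in I209S P214L cells, against 50.6 to 60.1 CPM in ZsGreen cells. Of the 10 markers 4, 6, 3 and 6 reached 1 CPM in those groups, Adgre1 gave most of the sum with ETV6 WT and I209S P214L (127 and 109 CPM, with 52.0 CPM in P214L cells, against 19.9 CPM in ZsGreen cells), Marco and Mertk had a count of 0 in every library, and their part in the result for Slc7a11 was not tested. The means of Lyz2, Cd68, Itgam, Cd14 and Fcgr1 lay below ZsGreen with ETV6 WT and I209S P214L, untested. Lyz2 averaged 0.762 CPM in ETV6 WT cells, 36.1 CPM in P214L cells and 0.371 CPM in I209S P214L cells, against 8.83 CPM in ZsGreen cells. Cd68 averaged 7.71, 21.8 and 7.80 CPM in the same forms, against 12.5 CPM in ZsGreen cells.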

How the data were processed

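RNA was poly-A selected. The labels' protocol covers stranded as well as unstranded preparation without naming which was used. Per the submitters' processing notes, the authors used HISAT2 2.0.5, featureCounts 1.5.0-p3 and build mm39. The authors deposited a raw count for each of 56748 genes in each of the 12 libraries, per the file headers, together with FPKM, gene length and position. The authors' deposited FPKM values were used only to set genes side by side. The tests used edgeR 4.0.16 (R 4.3.3): filterByExpr over the 4 groups (14794 genes), TMM, a quasi-likelihood fit with 1 mean per group over all 12 libraries, 6 contrasts and Benjamini-Hochberg adjustment over all genes tested. The steps were tested on simulated data. A gene was called at an adjusted p under 0.05, and reads carry no molecular identifiers, so floors cover counting error only (3 counts).

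The 10 genes and the 8 lists were chosen with earlier results of these data known. From each list, up to 3 called genes in each direction with the smallest adjusted p were named for ETV6 WT against ZsGreen, P214L against ZsGreen and I209S P214L against P214L, and 5 genes most like Sqstm1 or Slc7a11 at a mean of at least 5 CPM. Alternatives were DESeq2 1.42.0 and its size factors, limma-voom 3.58.1, no filter beyond 1 count, the replicate number as a block, only the 6 libraries compared, each library left out, and ETV6 WT 1 left out together with I209S P214L 1. Markers of fibroblasts summed to at most 0.508 CPM in any library, and of 8 mast cell markers Gata2 gave nearly all of the sum, 1728 to 3001 CPM over the groups.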

Additional observations from a re-analysis of the deposited data

How the results depend on the processing

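Alternatives did not turn the direction of any called difference among the 10 genes. The count of called genes for I209S P214L against ETV6 WT was 2 with DESeq2, 2 with no filter beyond 1 count and 0 to 1 with single libraries left out, against 0. Differences near 0 changed sign: Gclc for ETV6 WT against ZsGreen was 0.017 with no filter and 0.016 without both ETV6 WT 1 and I209S P214L 1, against -0.0032; Gclm for P214L against ZsGreen was -0.000307 with DESeq2 size factors and -0.000279 with DESeq2, against 0.0086; and Nfe2l2 for I209S P214L against P214L was 0.0072, 0.00743 and 0.000666 with those 2 settings and with only the 6 libraries compared, against -0.0041. With single libraries left out, Gclc for ETV6 WT against ZsGreen lay between -0.10 and 0.062. For P214L against ZsGreen, Keap1 lay between -0.089 and 0.0027, Gclm between -0.095 and 0.074 and Srxn1 between -0.057 and 0.067. Nqo1 for P214L against ETV6 WT lay between -0.20 and 0.027, and for I209S P214L against ETV6 WT Keap1 lay between -0.084 and 0.10 and Nqo1 between -0.11 and 0.11. For I209S P214L against P214L, Slc7a11 lay between -0.17 and 0.0074 and Nfe2l2 between -0.024 and 0.017. The number of all genes called for P214L against ZsGreen was 1188 with DESeq2, 1224 without both libraries and 369 to 960 with single libraries left out (369, 489 and 390 without P214L 1, 2 and 3), against 751. For I209S P214L against ETV6 WT it was 23 with DESeq2, 38 with no filter, 3 with limma-voom, 3 with only the 6 libraries and 1 to 6 with single libraries left out (1 without ETV6 WT 2, ETV6 WT 3, I209S P214L 2 or I209S P214L 3), against 5. For P214L against ZsGreen, calls among the NRF2 regulators were 2 with DESeq2, with no filter and without both libraries, against 1, and those of the ATF4 and cystine list were 5, 6 and 8, against 2. The cause of these changes was not tested. Nfe2l2 for ETV6 WT against ZsGreen was also lost with DESeq2 size factors (adjusted p = 0.0563), no filter (0.124), only the 6 libraries (0.155) and without both libraries (0.107), and Gclm in that comparison was called with no filter (0.0187). The replicate numbers did not pair the libraries across all groups: the deviations of same-numbered libraries correlated at over 0.1 in 2 of 18 pairs (range -0.061 to 0.53), both between I209S P214L and ETV6 WT (0.53 for number 1 and 0.25 for number 3, with 0.079 for number 2). With the replicate block, Nfe2l2 for ETV6 WT was 0.16 with an adjusted p of 0.0517, so 3 of 8 genes were called, and no other call among the 10 genes changed. Nqo1, under 21 CPM in every library, had the widest intervals of the 10 genes.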
